A study of Mus musculus with 10 samples.

Results

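The genes described here are 10 that are known for the identity and self-renewal of long-term hematopoietic stem cells: Mecom, Hlf, Prdm16, Mllt3, Fgd5, Msi2, Sult1a1, Txnip, Nupr1 and Neo1. They were taken by name from a table of 51670 mouse gene models, in which each was found, and 9 of the 10 reached the level needed for testing. Expression was measured by RNA-seq in hematopoietic stem cells sorted as CD48-CD150+LSK cells (LSK standing for lineage-negative, Sca-1-positive and Kit-positive) from the bone marrow of wild-type C57BL/6J mice. The mice had received an intraperitoneal injection of tunicamycin at 2 mg/kg (Tunicamycin, 5 libraries) or of DMSO, the solvent (DMSO, 5 libraries). Tunicamycin blocks N-linked glycosylation, so that unfolded proteins collect in the endoplasmic reticulum (ER), and the title of the study places EMP1 and ER stress in these cells at its centre. The labels do not give the time from injection to sorting, the number of cells sorted, the age of the mice or which animals gave which library. The p-values therefore measure the spread between these libraries, which may in part be technical. All libraries were amplified from small amounts of RNA by Geo-seq, and the gate defines the cells by surface protein.

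Long-term stem cells are the cells of the marrow that rebuild all blood lineages after transplantation and that spend most of their time out of the cell cycle. A small set of transcription factors (Mecom, Hlf, Prdm16) and their cofactors holds this state, while RNA-binding and signalling proteins (Msi2, Fgd5, Neo1) either tune it or mark the cells that have it. Stress-responsive genes (Txnip, Nupr1) are known to take part in the quiescence of these cells, and Sult1a1 is among the genes enriched in them.

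Promoter sequence is given for the members that differed most between the groups, Sult1a1 and Nupr1. Sequences are from RefSeq (GRCm38.p6) and read 5′ to 3′ on the strand of the gene, which is the minus strand for both. Positions count from the transcription start, with -1 as the last upstream base. In the 250 bases upstream of Sult1a1 (chr7:126676419-126676668), the capitals mark a CCAAT box, read on the opposite strand at -133 to -129. It is a common element, found in 33.83% of 32817 promoter windows of the same length. The last 14 bases of the Sult1a1 window, next to the start, lie within a Sult1a1 exon in GENCODE M21.
Sult1a1: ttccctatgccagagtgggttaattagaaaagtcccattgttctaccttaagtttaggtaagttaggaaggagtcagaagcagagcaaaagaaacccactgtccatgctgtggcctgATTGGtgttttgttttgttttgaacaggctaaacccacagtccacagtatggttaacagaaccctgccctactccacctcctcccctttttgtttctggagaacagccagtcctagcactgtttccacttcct
For Nupr1 only 30 bases are shown (chr7:126625562-126625591, -121 to -92), since the window lies within an exon of a longer Nupr1 transcript. The capitals mark the C/EBP-ATF element TGATGNAA, read on the opposite strand at -110 to -103 and found in 3.45% of windows. This is the kind of element through which ATF4 and its partners act in the integrated stress response.
Nupr1: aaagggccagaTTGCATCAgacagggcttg
All 10 members had a promoter entry, and 10 motifs were searched on both strands in each. They were the E-box CACGTG, the C/EBP-ATF element, the ER stress element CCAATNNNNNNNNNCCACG, which contains a CCAAT box, the cAMP element TGACGTCA, the PAR bZIP site in the forms TTACGTAA and TTATGTAA, the AP-1 site TGANTCA, the RUNX site TGTGGT, the GATA site AGATAA, the ETS site CCGGAA and the CCAAT box itself. Besides the marked letters, the Sult1a1 window held none of these. The 250 bases upstream of Nupr1 also held the E-box CACGTG at -225 to -220, outside the bases shown and found in 6.02% of windows. Matches in the other members are not listed here. A match describes letters in the window and shows no binding.

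Values are FPKM as deposited, that is, fragment numbers corrected for gene length and sequencing depth. Changes are Tunicamycin minus DMSO on the scale log2(FPKM + 1) with their standard error, and genes with an adjusted p under 0.05 were called (limma, Benjamini-Hochberg over 14727 genes). Over these genes the median change was 0.18 on that scale, so a member at that value stood at the middle of all genes. The FPKM of the libraries summed to 436970 to 477768 in Tunicamycin and 492963 to 499251 in DMSO. DMSO replicates 3 and 5 carried Y-linked transcripts and the other 8 libraries carried Xist. All 10 tested ER stress genes were called higher, with and without Tunicamycin replicate 1, among them Sdf2l1 at 369 ± 139 FPKM in Tunicamycin and 35.4 ± 7.38 FPKM in DMSO (SD, n = 5 each). Of the 10, 1 (Derl3) reached the level for testing through treated libraries alone and had to be higher there. The library Tunicamycin replicate 1 held whole numbers only, whereas the other 9 carried decimals. No source used here says how its numbers were made, so the members are given with it and without it, and the gene lists by their counts in both cases. Its value was below the mean of the other 4 treated libraries for most genes, with a median over the tested genes of 75.0% and quartiles of 58.1% and 90.4%.

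Of the 9 tested members, 6 were called higher after tunicamycin (Mecom, Mllt3, Fgd5, Sult1a1, Txnip and Nupr1) and 0 lower. Hlf, Prdm16 and Msi2 were not called. At an unadjusted p under 0.05, limma gave 8 higher and 0 lower, all but Msi2. Of all tested genes, 29.9% were called higher and 15.4% lower, 45.3% in all. The median change of the 9 members was 0.52, against 0.18 over all tested genes. The Tunicamycin and DMSO libraries did not overlap for 2 of the 9, Sult1a1 and Nupr1, both higher, and this held for 19.2% of all tested genes in that direction. Without Tunicamycin replicate 1, 8 of the 9 were called higher, against 41.8% of all tested genes, and 8 of the 9 did not overlap, against 35.1%. The member not called there was Msi2, and the member that still overlapped was Txnip.

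**Figure D1:**
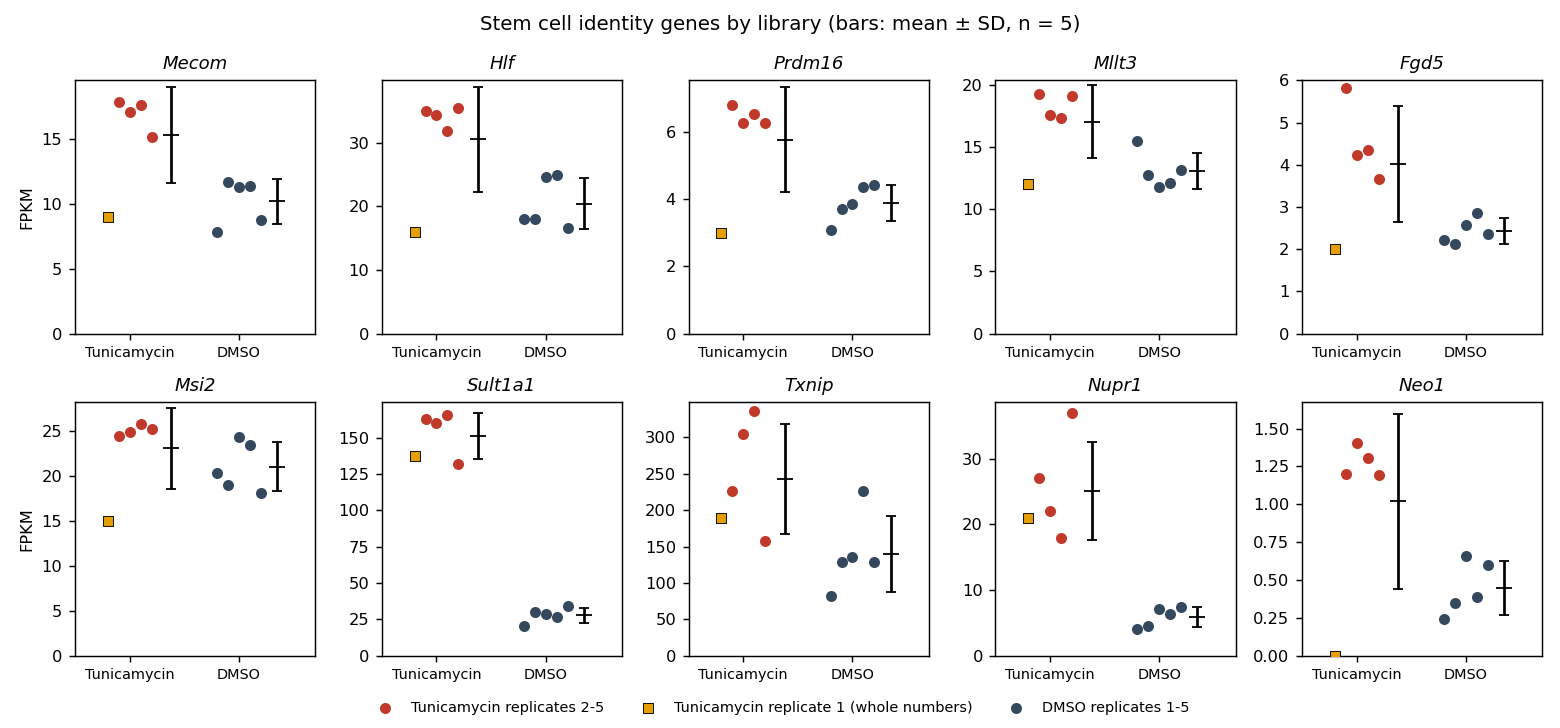
FPKM of each of the 10 members in every library, with Tunicamycin left of DMSO; bars give the mean and SD of 5 libraries per group, and the square is Tunicamycin replicate 1. The groups are apart for Sult1a1 (131 to 166 FPKM in Tunicamycin, 20.1 to 34.0 FPKM in DMSO) and Nupr1, while for Mecom, Hlf, Prdm16, Mllt3, Fgd5, Msi2 and Neo1 the square is the lowest treated value.

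Mecom encodes the zinc finger proteins EVI1 and MDS1-EVI1, which stem cells need to persist. Its level was 9, 17.8, 17.05, 17.6 and 15.1 FPKM in Tunicamycin replicates 1 to 5 and 7.82, 11.6, 11.3, 11.4 and 8.77 FPKM in DMSO replicates 1 to 5. Tunicamycin replicate 1 lay among the DMSO libraries, and the other 4 treated libraries lay above all of them. Mecom (ENSMUSG00000027684, chr3:29951296-30548008, minus strand, mm10) averaged 15.3 ± 3.68 FPKM in Tunicamycin and 10.2 ± 1.76 FPKM in DMSO (SD, n = 5 each). The change was 0.52 ± 0.18 with an adjusted p of 0.0306, and the exact two-sided permutation test of log2(FPKM + 1) gave p = 0.0317. Without Tunicamycin replicate 1 it was 0.69 ± 0.13 (adjusted p = 0.00108). The call was lost without any of Tunicamycin replicates 2, 3 and 4 or DMSO replicates 1 and 5 (adjusted p 0.0698 to 0.0795), and over all 22 alternative settings adjusted p ranged from 0.00108 to 0.124.

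Hlf encodes a PAR bZIP transcription factor that marks stem cells in mouse and human and holds them in quiescence. Its level was 16, 34.9, 34.4, 31.8 and 35.4 FPKM in Tunicamycin replicates 1 to 5 and 17.9, 18.0, 24.6, 25.0 and 16.5 FPKM in DMSO replicates 1 to 5. As listed, Tunicamycin replicate 1 was below every DMSO library, though its whole number of 16 is close to the lowest of them (16.5 FPKM). The other 4 treated libraries were above every DMSO library. Hlf (ENSMUSG00000003949, chr11:90336536-90390895, minus strand) averaged 30.5 ± 8.23 FPKM in Tunicamycin and 20.4 ± 4.05 FPKM in DMSO (SD, n = 5 each), a change of 0.52 ± 0.21 that was not called (adjusted p = 0.0555, exact two-sided permutation p = 0.0794). Without Tunicamycin replicate 1 the change was 0.73 ± 0.13 (adjusted p = 0.00106). It also passed the threshold without DMSO replicate 3 (0.0483) or DMSO replicate 4 (0.0464), and over the 22 alternative settings adjusted p ranged from 0.00106 to 0.184.

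Prdm16 encodes a zinc finger protein of the PRDM family, as Mecom does in its longer form, and is needed to maintain stem cells. Its level was 3, 6.81, 6.27, 6.52 and 6.27 FPKM in Tunicamycin replicates 1 to 5 and 3.08, 3.71, 3.86, 4.38 and 4.41 FPKM in DMSO replicates 1 to 5. As listed, replicate 1 was again below every DMSO library, but a whole number of 3 is too coarse to place it against 3.08 FPKM. The other 4 treated libraries were above every DMSO library, with an SD of 0.258 FPKM among those 4. Prdm16 (ENSMUSG00000039410, chr4:154316125-154636873, minus strand) averaged 5.77 ± 1.57 FPKM in Tunicamycin and 3.89 ± 0.548 FPKM in DMSO (SD, n = 5 each). The change of 0.44 ± 0.18 was not called (adjusted p = 0.0630), whereas without Tunicamycin replicate 1 it was 0.62 ± 0.10 (adjusted p = 0.000652). Over 21 alternative settings adjusted p ranged from 0.000652 to 0.224.

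Mllt3 encodes AF9, a chromatin reader that joins the super elongation complex and the histone methyltransferase DOT1L, and it sustains self-renewal of human stem cells. Its level was 12, 19.2, 17.6, 17.3 and 19.1 FPKM in Tunicamycin replicates 1 to 5 and 15.5, 12.8, 11.8, 12.1 and 13.1 FPKM in DMSO replicates 1 to 5. Replicate 1 lay near the bottom of the DMSO range and the other 4 treated libraries above it. Mllt3 (ENSMUSG00000028496, chr4:87769925-88033364, minus strand) averaged 17.0 ± 2.95 FPKM in Tunicamycin and 13.0 ± 1.45 FPKM in DMSO (SD, n = 5 each). The change was 0.35 ± 0.13 (adjusted p = 0.0475), close to the threshold, and 0.46 ± 0.10 without Tunicamycin replicate 1 (adjusted p = 0.00227). The call was lost without any of the other 4 treated libraries or any of DMSO replicates 2 to 5 (adjusted p 0.0809 to 0.114), with the highest adjusted p over 22 settings at 0.423.

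Fgd5 encodes an exchange factor for the small GTPase Cdc42; it marks mouse stem cells within the marrow's blood cells and is also expressed by endothelial cells. Its level was 2, 5.83, 4.24, 4.36 and 3.67 FPKM in Tunicamycin replicates 1 to 5 and 2.21, 2.12, 2.58, 2.87 and 2.37 FPKM in DMSO replicates 1 to 5. As listed, Tunicamycin replicate 1 was below every DMSO library, but a whole number of 2 is too coarse to place it against 2.12 to 2.87 FPKM. Tunicamycin replicate 2 was the highest of all. Fgd5 (ENSMUSG00000034037, chr6:91978878-92076004, plus strand) averaged 4.02 ± 1.38 FPKM in Tunicamycin and 2.43 ± 0.300 FPKM in DMSO (SD, n = 5 each). The change was 0.50 ± 0.19 (adjusted p = 0.0444), and 0.68 ± 0.13 without Tunicamycin replicate 1 (adjusted p = 0.00117). Leaving out any of the other 9 libraries lost the call (adjusted p 0.0515 to 0.117), and over 21 alternative settings adjusted p reached 0.138.

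Msi2 encodes an RNA-binding protein that controls translation in stem and progenitor cells. Its level was 15, 24.4, 24.9, 25.7 and 25.3 FPKM in Tunicamycin replicates 1 to 5 and 20.4, 19.0, 24.3, 23.4 and 18.1 FPKM in DMSO replicates 1 to 5. Replicate 1 was the lowest of the 10 libraries, and the other 4 treated libraries lay just above the highest DMSO value. Msi2 (ENSMUSG00000069769, chr11:88339382-88718513, minus strand) averaged 23.1 ± 4.53 FPKM in Tunicamycin and 21.0 ± 2.72 FPKM in DMSO (SD, n = 5 each). The change of 0.11 ± 0.15 was below the median of all genes and was not called (adjusted p = 0.578). Without Tunicamycin replicate 1 it was 0.25 ± 0.10 (adjusted p = 0.0556), the lowest adjusted p of its 22 alternative settings. The sign turned when each library was scaled to the same median over tested genes (-0.14) and under quantile normalization (-0.01), so no direction is given for Msi2.

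Neo1 encodes neogenin, a receptor for netrins and repulsive guidance molecules that marks a quiescent part of the stem cells. Its level was 0, 1.20, 1.40, 1.31 and 1.19 FPKM in Tunicamycin replicates 1 to 5 and 0.244, 0.347, 0.662, 0.386 and 0.599 FPKM in DMSO replicates 1 to 5. Replicate 1 is listed at 0 in whole numbers, where values near 1 FPKM are coarse. The other 4 treated libraries lay above every DMSO library. Neo1 (ENSMUSG00000032340, chr9:58874687-59036441, minus strand) reached 1 FPKM in 4 libraries only and so was outside the 14727 tested genes. The exact two-sided permutation test of its FPKM gave p = 0.127 over 10 libraries and p = 0.00794 without Tunicamycin replicate 1, the smallest p that 4 against 5 libraries allow. Since Neo1 reached 1 FPKM in treated libraries alone, no filter on that level can test it without resting on its high group, and no call is given for it. By the step size of low values, this level corresponds to about 404 to 599 reads in the 4 treated libraries with decimals and about 64.8 to 267 reads in DMSO. Beside this, the median over all gene models was 0.271 to 0.553 FPKM in those 4 treated libraries and 0.076 to 0.360 FPKM in DMSO, highest in DMSO replicate 3, which also had the highest Neo1 of the DMSO group. The part of that shift in the Neo1 result was not tested.

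Sult1a1, a sulfotransferase of phenols and among the genes enriched in stem cells, rose most of the 10. Its level was 137, 163, 160, 166 and 131 FPKM in Tunicamycin replicates 1 to 5 and 20.1, 30.2, 28.3, 26.9 and 34.0 FPKM in DMSO replicates 1 to 5. Every treated library, replicate 1 included, lay far above every DMSO library. Sult1a1 (ENSMUSG00000030711, chr7:126672865-126676432, minus strand) averaged 151 ± 15.9 FPKM in Tunicamycin and 27.9 ± 5.12 FPKM in DMSO (SD, n = 5 each), a 5.42-fold difference of means. The change was 2.41 ± 0.14 (adjusted p = 2.46e-07), higher than that of 99.6% of tested genes. The exact two-sided permutation test gave p = 0.00794, the smallest it allows over 252 assignments. It passed the threshold in all 22 alternative settings, with changes of 2.12 to 2.56. Sult1a1 shares 61 of its 1507 exon bases with Sgf29 on the other strand, and whether counting used the strand is not stated. Sgf29 was at 54.7 FPKM in Tunicamycin and 49.5 FPKM in DMSO and was not called (0.12, adjusted p = 0.456).

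Nupr1 encodes a small nuclear stress protein that ATF4 is known to induce. Its level was 21, 27.1, 22.1, 17.9 and 37.0 FPKM in Tunicamycin replicates 1 to 5 and 4.04, 4.49, 7.14, 6.38 and 7.45 FPKM in DMSO replicates 1 to 5. The lowest treated library, replicate 4, was above the highest DMSO library. Nupr1 (ENSMUSG00000030717, chr7:126623249-126630861, minus strand) averaged 25.0 ± 7.46 FPKM in Tunicamycin and 5.90 ± 1.55 FPKM in DMSO (SD, n = 5 each), a 4.24-fold difference of means. The change was 1.90 ± 0.20 (adjusted p = 2.00e-05), above that of 99.0% of tested genes, and it passed the threshold in all 22 alternative settings (1.65 to 2.15). The exact two-sided permutation p was 0.00794.

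Txnip encodes the thioredoxin-interacting protein, an arrestin-family inhibitor of thioredoxin and of glucose uptake. Its level was 189, 227, 304, 336 and 157 FPKM in Tunicamycin replicates 1 to 5 and 82.0, 128, 135, 226 and 129 FPKM in DMSO replicates 1 to 5. DMSO replicate 4 stood above Tunicamycin replicates 1 and 5, so the groups overlapped with and without replicate 1. Txnip (ENSMUSG00000038393, chr3:96557957-96561883, plus strand) averaged 243 ± 75.7 FPKM in Tunicamycin and 140.1 ± 52.5 FPKM in DMSO (SD, n = 5 each), and its spread in DMSO, 37.5% of the mean, was the largest among the tested members. The change was 0.81 ± 0.26 (adjusted p = 0.0224, exact two-sided permutation p = 0.0317). Without Tunicamycin replicate 1 it was 0.88 ± 0.28 (adjusted p = 0.0220). The call was lost without Tunicamycin replicate 3 (adjusted p = 0.0559), Tunicamycin replicate 4 (0.0542) or DMSO replicate 1 (0.0586), and over 22 settings adjusted p ranged from 0.00294 to 0.156. It shares 606 of its 3123 exon bases with Gm15441 on the other strand, which was at 1.13 FPKM in Tunicamycin and 0.430 FPKM in DMSO.

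**Figure D2:**
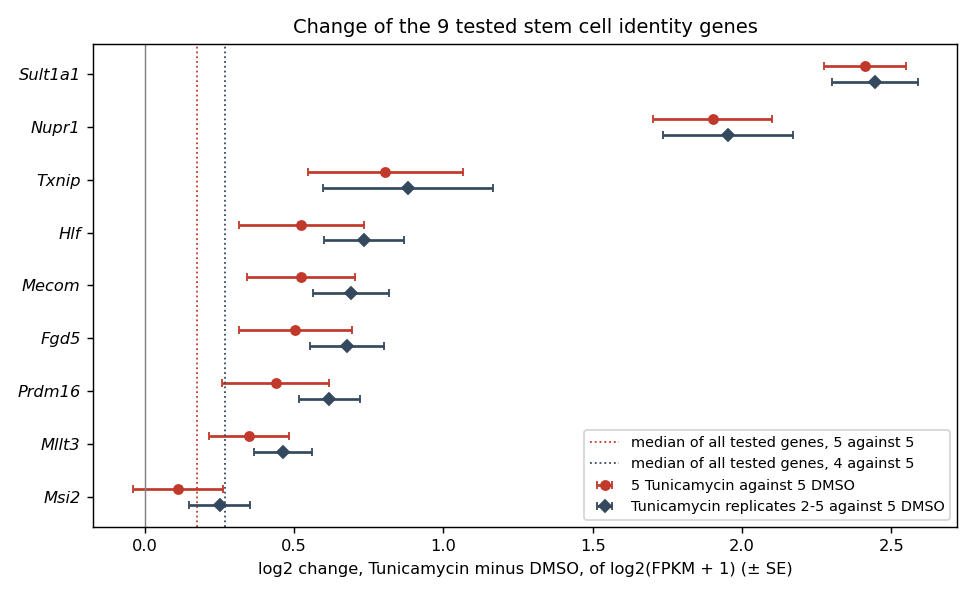
Change of the 9 tested members on the log2(FPKM + 1) scale, Tunicamycin minus DMSO, with its standard error, for all 10 libraries and without Tunicamycin replicate 1; dotted lines give the median of all tested genes under each (0.18 and 0.27). Sult1a1 (2.41) and Nupr1 (1.90) stand apart from the other 7, which lie between 0.11 and 0.81 over all 10 libraries.

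The place of Tunicamycin replicate 1 within the treated group varied among the members, as a description with no test. For Mecom, Hlf, Prdm16, Mllt3, Fgd5 and Msi2 it was at 44.2% (Fgd5) to 65.6% (Mllt3) of the mean of the other 4 treated libraries. Its whole numbers make this share coarse for Fgd5 and Prdm16. Tunicamycin replicate 1 was at 73.8% for Txnip, 80.7% for Nupr1 and 88.4% for Sult1a1, against a median of 75.0% over all tested genes. It was the lowest treated library for 6 of the 9 tested members (66.7%), against 61.6% of all tested genes, and at or below the highest DMSO library for 7 of the 9 (77.8%), against 76.5%. The surface marker genes Procr (43.5%) and Cd34 (49.0%) were at a similar share in that library, while Ly6a, which encodes Sca-1, was at 98.9%. Its summed macrophage markers were the highest of all, at 6285 FPKM, against 2404 to 3840 FPKM in the other treated libraries and 786 to 1527 FPKM in DMSO. Its summed ER stress genes were also the highest of all, at 3502 FPKM, against 1894 to 2998 FPKM in the other treated libraries and 466 to 664 FPKM in DMSO. The part of those markers or of the ER stress genes in its low values was not tested. In bulk libraries, fewer cells of a type and less RNA per cell cannot be told apart.

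**Figure D3:**
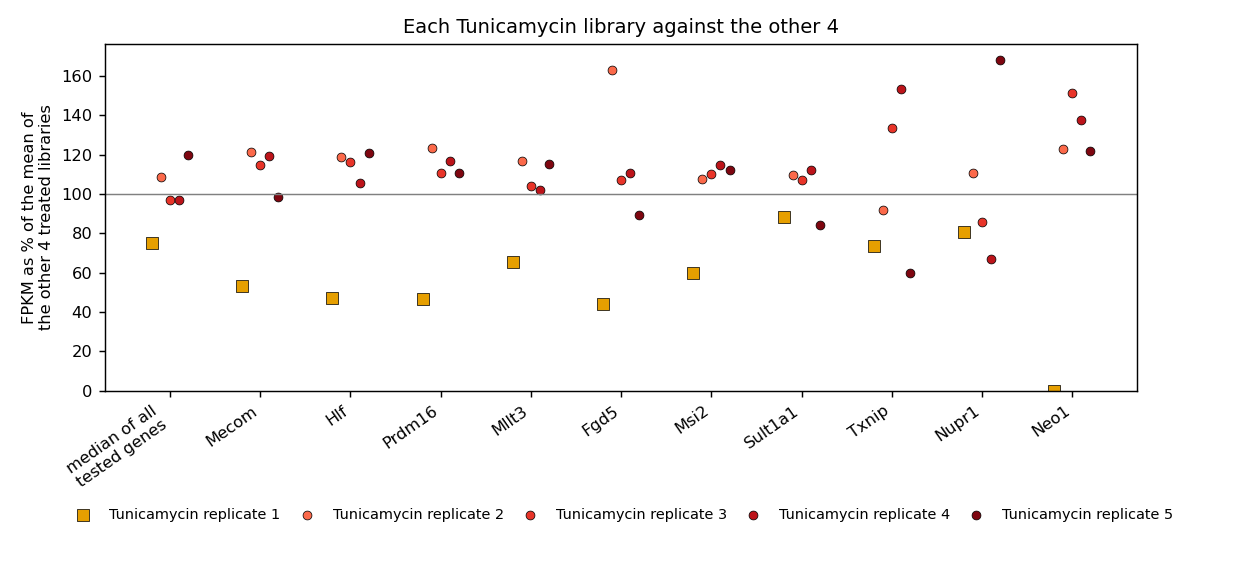
FPKM of each Tunicamycin library as a percentage of the mean of the other 4 treated libraries, for the median of all tested genes and for each member; the line marks 100%. Tunicamycin replicate 1 (square) is below 100% for all 9 tested members, from 44.2% (Fgd5) to 88.4% (Sult1a1), and is listed at 0 for Neo1. Its whole numbers make the shares of Fgd5 and Prdm16 coarse.

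Scaling and the filter on low values also bore on the smaller changes. With each library scaled to the same FPKM sum (TPM scaling), the median change of all genes was 0.31, and 8 of the 9 members were called higher, against 37.2% of all tested genes; Hlf (0.66, adjusted p = 0.0225) and Prdm16 (0.60, adjusted p = 0.0258) joined the 6. With each library scaled to the same median over the tested genes, the median change of all genes was -0.04, and 2 members, Sult1a1 and Nupr1, were called higher, against 20.6% of all tested genes. With that scaling and without Tunicamycin replicate 1, 6 members were called higher, against 23.0%: Sult1a1 (2.12), Nupr1 (1.65), Fgd5 (0.43, adjusted p = 0.0156), Hlf (0.42, 0.0141), Mecom (0.39, 0.0250) and Prdm16 (0.34, 0.0198). Mllt3 (0.15, adjusted p = 0.226) and Txnip (0.55, 0.156) were not called there. Under quantile normalization 3 members were called higher, against 23.3%, and with no filter on low values 2, against 6.55% of 51539 gene models. Among the 8 libraries that carried Xist, 2 members were called higher, against 21.0%, and 7 without Tunicamycin replicate 1, against 35.9%.

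Other genes known from stem cells were counted from a list of 50. Like the other lists here, it was chosen with earlier results of these data known, so its counts are no independent test. Of the 50 genes, 47 were tested. Of these, 30 were called higher, 1 lower and 16 in neither direction, with a median change of 0.63. Of all tested genes, 29.9% were called higher and 15.4% lower. The largest changes were those of Robo4, a guidance receptor of stem cells and endothelium, Tcf7l2, a transcription factor of the Wnt pathway, and Ubl3, a ubiquitin-like protein. Robo4 was at 13, 32.8, 23.1, 18.7 and 17.0 FPKM in Tunicamycin replicates 1 to 5 and 3.50, 8.67, 5.52, 10.4 and 5.61 FPKM in DMSO replicates 1 to 5 (change 1.51 ± 0.26, adjusted p = 0.000624). Tcf7l2 averaged 35.5 ± 13.7 FPKM in Tunicamycin and 12.4 ± 1.08 FPKM in DMSO (SD, n = 5 each, change 1.38 ± 0.20, adjusted p = 0.000154). Ubl3 averaged 16.2 ± 3.80 FPKM in Tunicamycin and 6.23 ± 1.44 FPKM in DMSO (SD, n = 5 each, change 1.25 ± 0.17, adjusted p = 0.000136). The gene called lower was Gfi1b, a repressor that restrains stem cell numbers and drives erythroid and megakaryocytic fate. Gfi1b was at 77, 60.0, 67.8, 50.2 and 100.8 FPKM in Tunicamycin replicates 1 to 5 and 152, 123, 99.2, 87.4 and 133 FPKM in DMSO replicates 1 to 5, and the groups overlapped (change -0.75 ± 0.19, adjusted p = 0.00738). The groups did not overlap for 13 of the 47, all higher, against 19.2% of all tested genes in that direction. Without Tunicamycin replicate 1 this held for 32, against 35.1%. That library was the lowest treated one for 36 of the 47 (76.6%), against 61.6% of all tested genes. Without it 37 of the 47 were called higher and 1 lower, against 41.8% and 14.6% of all tested genes. The median change was then 0.74, and Robo4 (1.66), Tcf7l2 (1.47), Ubl3 (1.32) and Gfi1b (-0.78) stayed past the threshold.

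**Figure D4:**
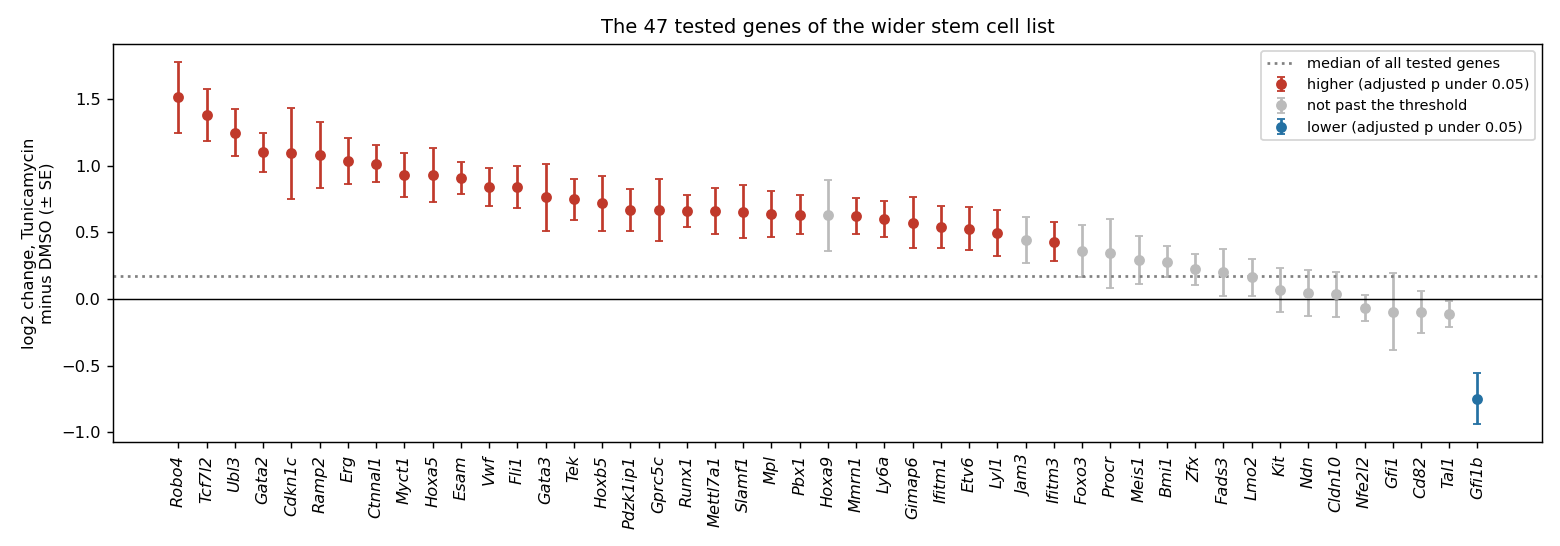
Change of the 47 tested genes of the wider stem cell list on the log2(FPKM + 1) scale, Tunicamycin minus DMSO, with its standard error; colours give the call and the dotted line the median of all tested genes (0.18). Of the 47, 30 were called higher and 1 lower (29.9% and 15.4% over all tested genes), from Robo4 (1.51) to Gfi1b (-0.75). The list was chosen with earlier results of these data known.

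Relatives and partners of the members numbered 76, of which 50 were tested, 27 called higher and 6 lower, with a median change of 0.42, and 31 higher and 6 lower without Tunicamycin replicate 1. The shares over all tested genes were 29.9% higher and 15.4% lower, and 41.8% and 14.6% without that library. Of the 50, 3 reached the filter through treated libraries alone and had to be higher there (Rgmb, Unc5a and Boc). These 3 are among the 27 and the 31, so those counts rest on the filter in part. All 3 tested relatives of Hlf rose. These were the PAR bZIP factors Tef (6.43 ± 0.616 FPKM in Tunicamycin and 4.32 ± 0.676 FPKM in DMSO, change 0.49) and Dbp (0.66), and Nfil3 (1.06), a repressor that binds the same letters. Among the 7 tested PRDM genes besides the members, Prdm11 was called (3.22 ± 0.346 FPKM in Tunicamycin and 1.71 ± 0.318 FPKM in DMSO, SD, n = 5 each, change 0.64 ± 0.13, adjusted p = 0.00152) and 6 were not, with changes of -0.15 (Prdm15) to 0.46 (Prdm9). Prdm4 (0.54, adjusted p = 0.00178) and Prdm9 (0.61, adjusted p = 0.00748) were also called without Tunicamycin replicate 1. Of 13 tested genes of the super elongation complex and the DOT1L complex, in which the Mllt3 protein works, 5 were called higher, led by the scaffolds Aff4 (0.80) and Aff3 (0.72) and the elongation factor Ell (0.65). Eaf1, a partner of Ell, fell (-0.43, adjusted p = 0.00428), and Dot1l itself was not called (8.90 ± 1.51 FPKM in Tunicamycin and 8.35 ± 0.907 FPKM in DMSO). The tested relatives of Fgd5, namely Fgd2 (0.66), Fgd3 (0.57) and Fgd4 (0.78), all rose. Their target Cdc42 was not called, at 257 ± 18.5 FPKM in Tunicamycin and 285 ± 10.5 FPKM in DMSO. Msi1, the only relative of Msi2 searched for, did not reach the filter.

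Around Neo1, 3 of 12 ligands and co-receptors searched for reached the filter. Each was below 1 FPKM in every DMSO library and so had to be higher in Tunicamycin, and nothing is read from their calls. They were the ligand Rgmb (1.83 ± 0.699 FPKM in Tunicamycin and 0.548 ± 0.226 FPKM in DMSO), the netrin receptor Unc5a (1.75 ± 0.665 FPKM in Tunicamycin and 0.640 ± 0.146 FPKM in DMSO) and the co-receptor Boc (1.60 ± 0.357 FPKM in Tunicamycin and 0.606 ± 0.127 FPKM in DMSO; SD, n = 5 each). Around Txnip, the arrestin relatives Arrdc1 (0.57), Arrdc2 (0.41), Arrdc3 (0.65) and Arrdc4 (1.37) were all called higher. So was Mlxip, which encodes MondoA, the glucose-sensing factor that drives Txnip and Arrdc4 in other cells (23.9 ± 8.50 FPKM in Tunicamycin and 8.01 ± 0.883 FPKM in DMSO, change 1.41 ± 0.20, adjusted p = 0.000129). The thioredoxins that the Txnip protein binds fell, Txn1 by 0.63 and Txn2 by 0.75 on the log2 scale. Txn1 was at 149 ± 25.5 FPKM in Tunicamycin and 230 ± 23.7 FPKM in DMSO (SD, n = 5 each), without overlap. The thioredoxin reductases were split, with Txnrd2 lower (-0.67, adjusted p = 0.00249) and Txnrd1 higher (0.46, adjusted p = 0.00912). Around Nupr1, the stress genes Trib3 (3.37) and Ddit3 (2.40) rose and the mitotic kinase Aurka fell (-1.21), while its paralog Nupr1l was not called (0.18, adjusted p = 0.635), except without Tunicamycin replicate 1 (0.48, adjusted p = 0.0283). No other sulfotransferase of the 9 searched for reached the filter. Papss1, an enzyme that makes the sulfate donor used by Sult1a1, rose (22.7 ± 1.51 FPKM in Tunicamycin and 16.8 ± 2.68 FPKM in DMSO, change 0.42 ± 0.12, adjusted p = 0.0112).

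Nupr1 and Sult1a1 lie 42.0 kb apart on chromosome 7 on the same strand. This neighbourhood was looked at after their values had been seen. Within 100 kb on each side, 13 other gene models were tested, of which 5 were called higher (Cln3 0.79, Il27 0.75, Apobr 0.58, Slx1b 0.49 and Mapk3 0.47) and the others in neither direction. Over all tested genes, 29.9% were called higher, so this count is near the general share. Without Tunicamycin replicate 1 the count higher was 6 of the 13, against 41.8% of all tested genes. None of the 13 changed as much as Nupr1 or Sult1a1, and the largest of the 5, Cln3, encodes a lysosomal membrane protein.

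**Figure D5:**
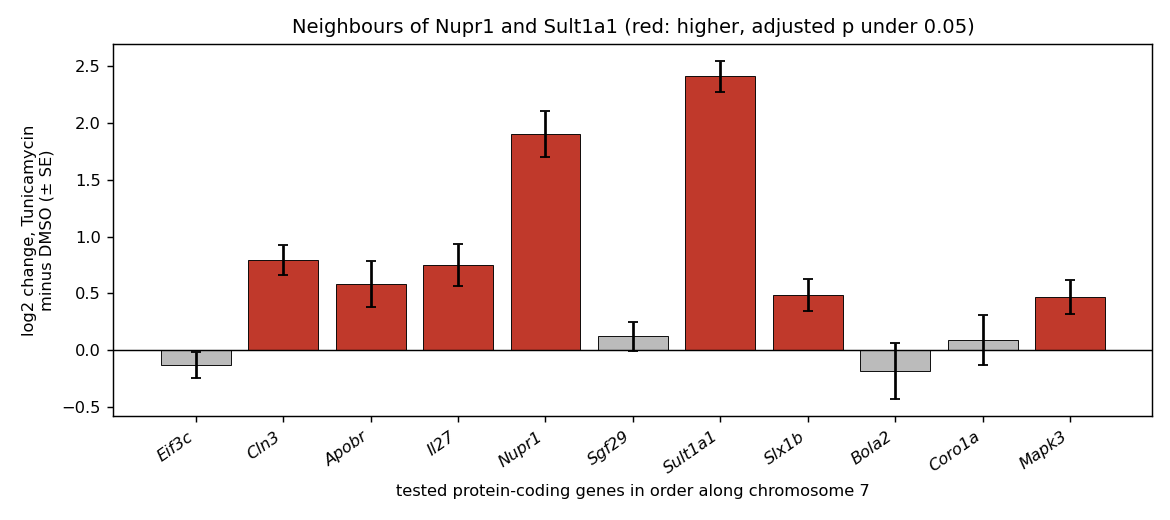
Change of the tested protein-coding genes around Nupr1 and Sult1a1 on the log2(FPKM + 1) scale, Tunicamycin minus DMSO, with its standard error, in their order along chromosome 7; red marks genes called higher. Sult1a1 (2.41) and Nupr1 (1.90) stand above their neighbours, the highest of which is Cln3 (0.79).

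The genes of the gate were present in every library of both groups. Ly6a was at 142 ± 23.1 FPKM in Tunicamycin and 93.0 ± 11.6 FPKM in DMSO (SD, n = 5 each, change 0.60), and Slamf1, which encodes CD150, was called as well (0.66). Kit (0.07, adjusted p = 0.761), Procr (0.34, adjusted p = 0.298) and Cd34 (0.14, adjusted p = 0.704) were not called, but Procr was without Tunicamycin replicate 1 (0.57, adjusted p = 0.0365). Cd48, whose protein the sort selects against, rose to 62.1 ± 9.25 FPKM in Tunicamycin, against 26.4 ± 7.52 FPKM in DMSO (change 1.23 ± 0.18, adjusted p = 0.000163). Flt3, a gene of multipotent progenitors, also rose (0.94, adjusted p = 0.0365). Of 18 tested progenitor genes, 6 were called higher and 4 lower, against 29.9% and 15.4% of all tested genes. Without Tunicamycin replicate 1 the counts were 8 and 4, against 41.8% and 14.6%. Over all 10 libraries the largest changes of progenitor genes were those of Car1 (-3.18) and Klf1 (-2.26), genes of early erythroid cells, and of the myeloid factor Irf8 (1.84). Of 17 cell cycle genes, 14 fell and 0 rose (also 14 and 0 at an unadjusted p under 0.05 in limma, and without Tunicamycin replicate 1), led by Ccne1 (-2.99), Mcm5 (-1.73) and Ccna2 (-1.56). All 15 tested immediate early genes were called higher. Of the 15, 1 (Klf4) reached the filter through treated libraries alone and had to be higher there.

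Markers of other marrow cells moved beside the stem cell genes. For comparison, 29.9% of all tested genes were called higher and 15.4% lower, and 41.8% and 14.6% without Tunicamycin replicate 1. Of the endothelial markers, 13 of 14 tested were called higher, and their sum over the list was 774 to 1465 FPKM in Tunicamycin and 255 to 386 FPKM in DMSO. Without Vcam1, which macrophages share, that sum was 293 FPKM in Tunicamycin replicate 1, 301 to 671 FPKM in the other treated libraries and 163 to 264 FPKM in DMSO. Of the macrophage markers, 14 of 15 were called higher, with sums of 2404 to 6285 FPKM in Tunicamycin and 786 to 1527 FPKM in DMSO. For stromal markers 7 of 10 were called higher, for megakaryocyte markers 11 of 14 and for B, T and NK cell markers 5 of 7. The others were not called, and 1 B, T or NK marker was lower at an unadjusted p under 0.05 in limma. Of those 7, 1 reached the filter through treated libraries alone and had to be higher there. Erythroid markers were split, with 6 of 14 higher and 8 lower. The largest of these changes were rises of globin genes, which share near-identical copies: Hbb-bs (2782 ± 1066 FPKM in Tunicamycin and 58.1 ± 32.8 FPKM in DMSO, change 5.68), Hba-a2 (5.07) and Hbb-bt (3.94). In the neutrophil and mast cell list, 0 of 13 neutrophil and mast cell markers were called in limma, with 1 higher and 0 lower at an unadjusted p under 0.05. Leaving out Tunicamycin replicate 1, the counts called higher were 14 endothelial, 14 macrophage, 6 stromal, 11 megakaryocyte, 5 B, T and NK, 6 erythroid and 1 neutrophil and mast cell markers, with 8 erythroid markers lower. No marker of these lists was at 0 in all libraries. Fgd5, Mecom and Robo4 are expressed by endothelial cells as well as stem cells, and the part of other cells in the changes of the members was not tested.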

How the data were processed

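RNA-seq libraries of sorted mouse stem cells were compared, 5 Tunicamycin with 5 DMSO, grouped by the treatment in their labels. The authors deposited FPKM values per gene model. The deposited column of Tunicamycin replicate 1 holds whole numbers and was taken as a score that follows the FPKM scale. Per the submitters' processing notes, the tools were Bowtie 0.12.9, Cufflinks 2.1.1, HTSeq and DESeq2, with build mm10; their roles, the annotation and read counts are not stated. Multiplied by exon length in GENCODE M21 (the same build), low FPKM of the other 9 libraries lay on steps that correspond to about 35500000 to 57700000 reads in Tunicamycin and 18600000 to 60400000 reads in DMSO, with 84.5% to 96.0% of values within 0.05 reads of a whole number. Since these lengths are from another annotation than the authors', no count test was run.

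Genes at 1 FPKM or more in at least 5 of 10 libraries were tested, 14727 of 51670, with limma 3.58.1 in R 4.3.3 (eBayes with trend) on log2(FPKM + 1), which understates changes of low genes, with Benjamini-Hochberg adjustment and a threshold of 0.05. Single genes were also compared by exact two-sided permutation tests of the difference in mean log2(FPKM + 1), over all assignments of the libraries (numpy 2.4.6). Data were simulated over 14727 genes with normal noise, 50 genes being changed at each of the sizes 0.5, 1, 2 and 3 (log2). Recovery was 14%, 72%, 96% and 98% in that order, with 9.09% of calls false. In the real data 45.3% of genes were called, far more than were changed in the simulation. These shares therefore need not hold for the real comparison. Members and gene lists were chosen with earlier results of these data known. All 10 members are named, from each other list at most the 3 called genes with the largest change, and from family lists also tested relatives of a member; further genes named in counts of 5 or fewer, and those of the gate, were chosen after their values were seen. Alternatives were another pseudocount, filter, scaling, variance model, replicate block, leaving out each library and the libraries with Xist alone. Figures were drawn with matplotlib 3.10.9 in Python 3.11.15.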

Additional observations from a re-analysis of the deposited data

Results flagged for a closer look

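In 20 groups of 5 values (10 members in each treatment), 5 groups held a library whose gap to its nearest neighbour exceeded 0.71 of the group's whole range. Chance gives about 1 such gap in 20 groups. All 5 were the lowest value of the treated group, and all lay in Tunicamycin replicate 1, the library of whole numbers, so they are not independent of each other. The values there were 16 FPKM for Hlf (gap of 0.815 of the range), 3 FPKM for Prdm16 (0.858), 12 FPKM for Mllt3 (0.737), 15 FPKM for Msi2 (0.879) and 0 FPKM for Neo1 (0.850). No DMSO group of a member held such a value.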

How the results depend on the processing

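Sult1a1 and Nupr1 were called in all 22 alternative settings. The count of 6 members called higher became 8 under TPM scaling (5481 of all tested genes higher), 2 without a filter on low values, 2 with equal medians, 3 under quantile normalization and 2 among the libraries with Xist alone, and lay between 2 and 8 when each library was left out in turn. Over all tested genes, 2859 were called higher with a minimum of 5 FPKM, where fewer genes were tested (4403 with the 1 FPKM filter). The 2261 called lower became 3972 with equal medians, 3767 under quantile normalization and 3908 with equal medians and without Tunicamycin replicate 1, while those called higher with equal medians were 3037. In the same 3 settings, the other stem cell genes called lower were 3, 2 and 4, and the relatives and partners called lower were 10, 10 and 10; Msi2 turned to -0.139, -0.0102 and -0.0645. The cause of these shifts was not tested. Leaving out each library gave 3561 to 6156 genes higher and 1908 to 2517 lower, 24 to 37 other stem cell genes higher and 1 lower, and 24 to 31 relatives and partners higher and 6 to 7 lower. Whether the replicate numbers mark pairs is not stated in the labels and was not settled here, and the main fit used no pairing. Of the 5 same-numbered pairs, 2 correlated above 0.1 (range 0.0207 to 0.248), and 3 of 5 treated libraries matched best with their own number. With the replicate block, 7 members were called higher (Hlf and Prdm16 gained, Mllt3 lost), and 4553 genes were higher and 2248 lower. The alternatives that join the omission of Tunicamycin replicate 1 with another filter, scaling or Xist were chosen after seeing the data. Low values limit Neo1, and the whole numbers of Tunicamycin replicate 1 limit every gene of a few FPKM, Fgd5 and Prdm16 among them.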
